A study of Mus musculus with 16 samples.

Results

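Matrix metalloproteinases (MMPs), the ADAMTS proteases, the tissue inhibitors of metalloproteinases (TIMPs) and the lysyl oxidases were followed by name through every gene table of the series. A gene was a member if its symbol was Mmp, Adamts, Timp1 to Timp4, Lox or Loxl1 to Loxl4 with only a number (and for Mmp an a or b) after the family name. This gave 51 of 33641 genes: 23 MMP, 19 ADAMTS, 4 TIMP and 5 lysyl oxidase genes. Of these, 35 averaged 1 TPM or more (transcripts per gene, corrected for length and scaled so that each library has the same sum) in at least 1 group of libraries and are described: 12 MMP, 14 ADAMTS, all 4 TIMP and all 5 lysyl oxidase genes. The other 16 stayed under that mean in every group: Adamts13, Adamts16, Adamts17, Adamts18, Adamts19, Mmp1a, Mmp1b, Mmp7, Mmp8, Mmp10, Mmp13, Mmp16, Mmp17, Mmp20, Mmp21 and Mmp24.

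RNA was sequenced from the left ventricle of the heart and from whole subcutaneous white adipose tissue (scWAT) of C57BL/6J mice aged 28 weeks. The groups were wild-type scWAT (mice A5, A7, A8, A12 and A14), scWAT labelled Adipo-HuR KO (A24, A26 and A30), wild-type heart (A5, A7, A8 and A14) and heart labelled Adipo-HuR KO (A25, A29, A30 and A31). The 16 libraries came from 11 mice, and 5 mice gave both tissues. Adipo-HuR KO stands for deletion of HuR in adipocytes (its gene is Elavl1, and the protein binds AU-rich messenger RNAs), and the promoter or Cre line behind it is not given in the sources used here. The study asked what this fat cell deletion does to the heart, so the heart muscle cells themselves were not the target of the deletion.

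The extracellular matrix is built, crosslinked and taken apart by these families. MMPs are zinc-dependent proteases that cut collagens, gelatins, elastin and cell surface proteins, and TIMPs block them by binding the active site. ADAMTS proteases trim procollagens or cut proteoglycans such as versican and aggrecan, and TIMP3 also inhibits several of them. Lysyl oxidases oxidise lysines in collagen and elastin, which lets the fibres crosslink and stiffen. In heart, interstitial fibroblasts are a main source of collagen and of many of these enzymes, and scar or fibrosis is known for a raised turnover and crosslinking of matrix.

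All 10 cardiomyocyte markers were at or above 1 TPM in every heart library, and all 10 mature adipocyte markers in every scWAT library. Elavl1 was not lower in the scWAT labelled knockout: it had 26.8 TPM ± 7.39 (SD, n = 5) in wild-type and 40.4 TPM ± 3.62 (SD, n = 3) in the labelled knockouts, so directions below rest on the labels. In heart Elavl1 had 10.4 TPM ± 2.68 (SD, n = 4) against 10.9 TPM ± 3.46 (SD, n = 4). Heart A29, labelled knockout, stood apart from the other 3 hearts of its group for most members, and results are given with and without it. Leaving out each library in turn was a planned step, but A29 is singled out here because of its values, so results without it are a description of the 7 remaining hearts and not an independent test. Heart A5, labelled wild-type, was the lowest of the 8 hearts for 71.4% of the 11981 genes tested and had the highest share of mitochondrially encoded RNA in its TPM, 60.6%, against 43.4% to 55.7% in the other 7 hearts. Among the fat libraries, A26 stood apart in its markers of lymphoid cells, given beside the fat results. All values come from whole tissue, in which fewer cells of a type and less RNA per cell cannot be told apart.

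In 3 of the 4 hearts labelled knockout (A25, A30 and A31), Timp1, Lox, Loxl1 to Loxl3, Mmp2, Mmp12, Mmp23 and Adamts2 stood above every wild-type heart, while A29 lay with the wild-type hearts. With all 8 hearts in the fit, no member passed the test. The fit was limma on log2(TPM + 1), heart labelled knockout minus wild-type, with Benjamini-Hochberg adjustment over all genes. Of the 25 members tested, 0 had an adjusted p under 0.05, and the lowest adjusted p was 0.142. Over all 11981 genes tested 0.0501% were called higher and 0% lower. At an unadjusted limma p under 0.05, 13 members were higher and 2 lower, where 20.9% of all genes tested were higher and 3.66% lower. These shares were 2508 and 439 of 11981 genes. Without wild-type heart A5, 6 of 25 members were higher and 2 lower at that threshold, with 1394 and 955 of 12106 genes. Of the 25 members tested, 21 averaged 1 TPM or more in the wild-type hearts, and 4 (Lox, Mmp12, Mmp19 and Adamts15) entered only through the labelled knockouts, so counts over the tested members lean to higher values by that filter. The median log2 difference over all genes tested was 0.26, and values called relative below have this subtracted.

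Without A29, 15 of the same 25 members were called by limma, 14 higher and 1 lower, against 34.8% of 12081 genes called higher and 4.16% lower. The called members were all 4 tested lysyl oxidases, 6 of 9 MMPs, 2 of 4 TIMPs and 3 of 8 ADAMTS genes. Without regard to the test, hearts A25, A30 and A31 all exceeded every wild-type heart for 14 of the 25 tested members, where the same held for 45.3% of all genes tested without A29. No described member had these 3 hearts below every wild-type heart, and with A29 included the labelled groups overlapped for every described member, where 3.71% of all genes tested had no overlap with higher and 0.634% with lower values. With library weights estimated from the data, which gave A29 the lowest weight, 18 members were called (15 higher and 3 lower, against 43.1% and 22.7% of all genes). In 1 fit over both tissues, Timp1, Lox, Loxl2 and Loxl3 were called higher, against 6.24% of all genes higher and 0.818% lower. Heart A29 was within the wild-type range for 24 of the 35 described members, below it for 11 and above it for 0.

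**Figure D1:**
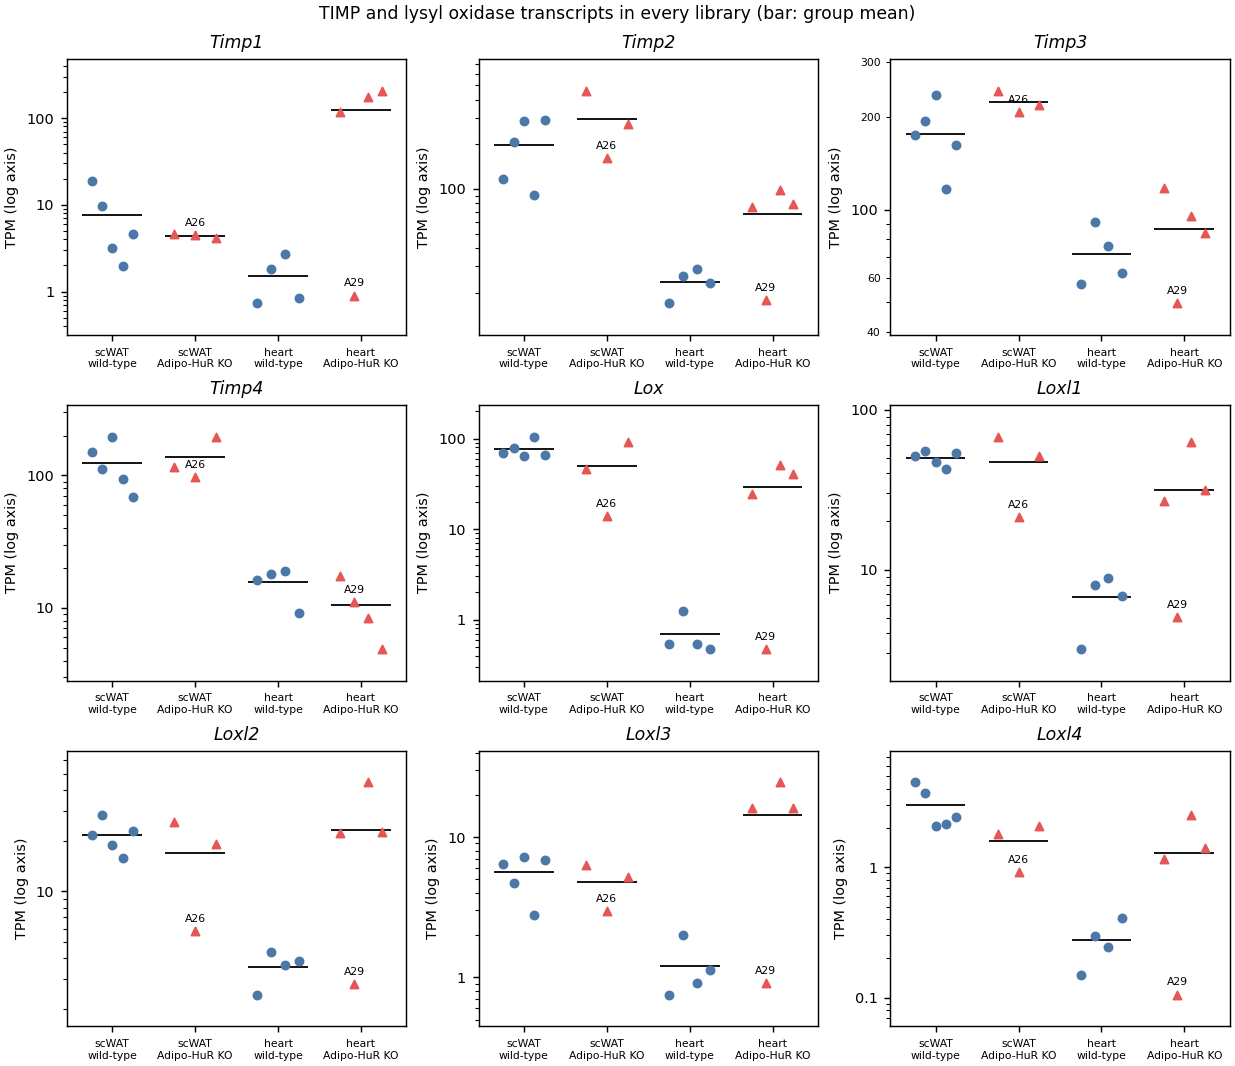
TPM (log axis) of the 4 TIMP and 5 lysyl oxidase genes in each library, by tissue and genotype label (circles, wild-type; triangles, Adipo-HuR KO label; bars, group means; hearts A29 and fat A26 are named). For Timp1, Timp2, Lox and Loxl1 to Loxl4, A25, A30 and A31 lie above all 4 wild-type hearts and A29 does not.

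Timp1, an inhibitor of most secreted MMPs that is known to be induced in injured and fibrotic tissue, had the largest difference of all members in heart. It had 0.736, 1.80, 2.71 and 0.846 TPM in wild-type hearts A5, A7, A8 and A14. The hearts labelled knockout held 117 TPM in A25, 0.900 in A29, 173 in A30 and 206 in A31. Only A29 overlapped the wild-type hearts. The group means were 1.52 TPM ± 0.926 (SD, n = 4) and 124 TPM ± 90.0 (SD, n = 4), a log2 difference of 4.47 (SE 1.22) with a limma adjusted p of 0.142. Without A29 the log2 difference was 6.08 (SE 0.30) with an adjusted p of 3.17e-06. An exact 2-sided permutation test over the 8 hearts gave an unadjusted p of 0.0857 for Timp1, where 0.0286 is the smallest this design allows, and none of the 35 described members reached that smallest value.

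Timp2, which inhibits MMP2 and also takes part in its activation on the cell surface, had 17.0, 25.8, 29.03 and 23.2 TPM in wild-type hearts A5, A7, A8 and A14. It had 75.3, 17.8, 97.9 and 79.7 TPM in A25, A29, A30 and A31. Its log2 difference was 1.26 (SE 0.45, limma adjusted p = 0.149), and 1.80 (SE 0.20, adjusted p = 0.000138) without A29. Timp3, which binds to the matrix itself, was the most abundant TIMP of every wild-type heart. Its wild-type values were 57.4, 91.3, 76.2 and 62.4 TPM and its labelled knockout values 117, 49.7, 95.1 and 84.2 TPM, so the groups overlapped. The log2 difference of Timp3 was 0.22 (SE 0.27, adjusted p = 0.609) and its relative value was -0.03. Its sign turned under other scalings, to -0.095 with median-of-ratios scaling of the TPM and -0.093 with quantile normalization. Timp4, the TIMP best known from heart muscle, had 16.3, 18.0, 19.1 and 9.23 TPM in wild-type hearts and 17.3, 11.1, 8.39 and 4.91 TPM in A25, A29, A30 and A31. The groups overlapped, and its log2 difference was -0.61 (SE 0.35, adjusted p = 0.288).

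The makeup of the TIMP transcripts therefore differed between these hearts. Timp1 made up 0.805% to 2.14% of the summed TIMP TPM in wild-type hearts and 1.13% in A29, and 35.9%, 46.2% and 54.9% in A25, A30 and A31. Timp3 took 60.0% to 66.7% in wild-type hearts, 62.5% in A29 and 22.5% to 35.9% in the other 3. The summed TIMP TPM was 91.5 to 137 in wild-type hearts, 79.6 in A29 and 327, 374 and 375 in A25, A30 and A31. The ratio of summed TIMP to summed MMP TPM showed no such split, at 1.84 to 3.21 in wild-type hearts and 2.20 to 3.34 in the 4 hearts labelled knockout.

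Among the lysyl oxidases, Lox itself, the founding enzyme of the family, had 0.544, 1.24, 0.543 and 0.478 TPM in wild-type hearts A5, A7, A8 and A14. It had 24.6 TPM in A25, 0.477 in A29, 51.8 in A30 and 40.7 in A31. All 3 high hearts lay far above the highest wild-type heart, and A29 was the lowest of all 8. The log2 difference was 3.34 (SE 0.91, limma adjusted p = 0.142) and the relative value 3.09. Without A29 the log2 difference was 4.52 (SE 0.28, limma adjusted p = 7.61e-06). Lox entered the test only through the labelled knockouts, and A29 was singled out by its values, so this p is descriptive. The exact permutation p was 0.143 for Lox over the 8 hearts.

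Loxl1 to Loxl3 were also high in A25, A30 and A31. Loxl1, which is known for its part in elastic fibre upkeep, had 3.20, 7.997, 8.88 and 6.84 TPM in wild-type hearts and 26.8, 5.05, 62.8 and 31.6 TPM in A25, A29, A30 and A31. Loxl2, which crosslinks collagen IV and fibrillar collagens, had 2.44, 4.34, 3.65 and 3.86 TPM in wild-type hearts and 22.3, 2.80, 44.4 and 22.4 TPM in the labelled knockouts. Loxl3, needed for collagen assembly in the skeleton and palate, had 0.754, 2.002, 0.914 and 1.13 TPM against 16.1, 0.917, 24.6 and 16.2 TPM. In each of these genes A30 was highest, A25 and A31 were close to each other, and A29 was inside the wild-type range. Their log2 differences were 1.72 (SE 0.60), 1.96 (SE 0.61) and 2.35 (SE 0.67), with limma adjusted p of 0.147, 0.142 and 0.142. Without A29 the differences were 2.39, 2.69 and 3.19, with adjusted p of 0.000733, 0.000103 and 2.73e-05.

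Loxl4 was too low to be tested in heart. It had 0.150 to 0.410 TPM in wild-type hearts, 0.106 in A29 and 1.17, 2.52 and 1.41 TPM in A25, A30 and A31. The share of Lox in the summed lysyl oxidase TPM was 3.76% to 7.79% in wild-type hearts and 5.10% in A29, where Loxl1 led with 45.2% to 62.4% and 53.98%. In A25, A30 and A31 the share of Lox was 27.0%, 27.8% and 36.2%, and in A31 Lox was the leading gene of the family. The summed lysyl oxidase TPM was 7.09 to 15.9 in wild-type hearts, 9.35 in A29 and 91.0, 186 and 112 in A25, A30 and A31.

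**Figure D2:**
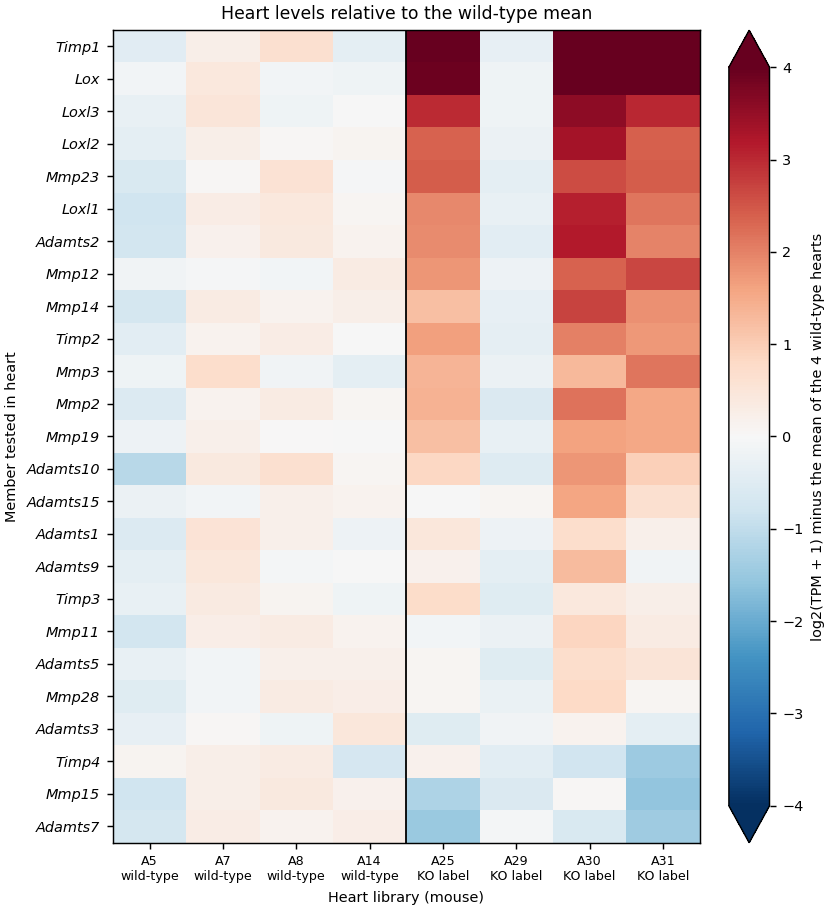
Each cell is log2(TPM + 1) of 1 of the 25 tested members in 1 heart, minus the mean of the 4 wild-type hearts (red, higher; blue, lower; colours saturate beyond 4 in either direction). Rows are ordered by the log2 difference between the labelled groups, from Timp1 at 4.47 to Adamts7 at -0.90. The column of A29 resembles the wild-type columns, and A25, A30 and A31 are red for the upper rows and pale or blue for Timp4, Mmp15 and Adamts7.

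Among the MMPs, the gelatinase Mmp2 had 9.80, 16.6, 19.1 and 15.6 TPM in wild-type hearts A5, A7, A8 and A14. It had 40.6, 9.63, 70.5 and 45.5 TPM in A25, A29, A30 and A31. Mmp14, the membrane-bound protease that activates MMP2, had 1.70, 4.56, 3.83 and 4.12 TPM in wild-type hearts and 9.17, 2.51, 27.8 and 14.6 TPM in the labelled knockouts. For Mmp2 the log2 difference was 1.13 (SE 0.49, limma adjusted p = 0.189), and for Mmp14 it was 1.36 (SE 0.54, adjusted p = 0.165). Mmp2, Mmp14 and their partner Timp2 thus all had A30 highest and A29 among the lowest hearts. Without A29, adjusted p were 0.000798 for Mmp2 and 0.00308 for Mmp14.

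Mmp23, a small membrane-anchored member with an unusual cysteine-rich domain, had 1.94, 3.62, 5.59 and 3.33 TPM in wild-type hearts and 22.6, 2.38, 25.9 and 22.7 TPM in A25, A29, A30 and A31. The 3 high hearts differed little from one another. The log2 difference of Mmp23 was 1.76 (SE 0.59, limma adjusted p = 0.142), and 2.48 (SE 0.26, adjusted p = 0.000114) without A29. Mmp19, a secreted protease of basement membrane components, had 0.703, 1.30, 1.02 and 0.947 TPM against 3.52, 0.625, 5.09 and 4.84 TPM. Mmp19 differed by 1.02 on the log2 scale (SE 0.39, adjusted p = 0.155).

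Mmp12, the macrophage elastase, and Mmp3, a stromelysin that can activate other MMPs, were low in wild-type heart. Mmp12 had 0.157, 0.228, 0.182 and 0.589 TPM in wild-type hearts and 3.37, 0.107, 5.59 and 7.17 TPM in A25, A29, A30 and A31. Mmp3 had 1.57, 3.77, 1.64 and 1.24 TPM in wild-type hearts and 6.51, 1.47, 6.17 and 11.96 TPM in the labelled knockouts. Together with Timp1 these were the 3 tested members highest in A31, while A30 was the highest heart for 17 of the 25 tested members and for 51.9% of all genes. The log2 differences were 1.65 (SE 0.52, limma adjusted p = 0.142) for Mmp12 and 1.14 (SE 0.45, adjusted p = 0.165) for Mmp3.

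The promoters of Mmp12, Mmp3 and Timp1 are shown because these 3 tested members had their highest value in A31 and have long been studied as targets of AP-1, the Fos and Jun family of transcription factors. The sequences are the 150 bases before the transcription start from RefSeq on GRCm38.p6, plus strand, and capitals mark matches to the AP-1 site TGANTCA. RefSeq gives 2 starts for Mmp12, and the stretch shown is that of the start with a match; the window around the other start, chr9:7344147-7344446, held none. Mmp12 lies at chr9:7347224-7347373, Mmp3 at chr9:7445672-7445821 and Timp1 at chrX:20870016-20870165.
Mmp12: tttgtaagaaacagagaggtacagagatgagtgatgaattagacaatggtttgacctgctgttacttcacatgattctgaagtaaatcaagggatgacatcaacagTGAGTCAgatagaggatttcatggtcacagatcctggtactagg
Mmp3: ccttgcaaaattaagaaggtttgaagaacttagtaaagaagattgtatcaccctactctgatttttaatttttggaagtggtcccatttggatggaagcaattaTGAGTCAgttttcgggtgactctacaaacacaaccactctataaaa
Timp1: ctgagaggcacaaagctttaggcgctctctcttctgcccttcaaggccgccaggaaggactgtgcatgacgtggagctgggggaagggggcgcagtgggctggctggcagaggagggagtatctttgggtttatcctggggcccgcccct
Mmp12 and Mmp3 each held 1 match, TGAGTCA, starting at -44 and -46 from the transcription start, and the Timp1 stretch held none. Windows of 250 bases before to 50 after the start were found for 21 of the 35 described members, and 2 of the 21 (9.52%) held TGANTCA on either strand, against 8.97% of 27025 genes. The share among members was close to that of all genes, and a match in letters is no measure of binding.

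Mmp15, a membrane-type MMP, and Adamts7, a protease of cartilage oligomeric matrix protein, were the 2 members with a lower value at an unadjusted limma p under 0.05. Mmp15 had 9.94, 21.5, 23.7 and 20.7 TPM in wild-type hearts A5, A7, A8 and A14, and 7.10, 11.7, 18.7 and 5.44 TPM in A25, A29, A30 and A31. The log2 difference of Mmp15 was -0.83 (SE 0.37, adjusted p = 0.200), and A30 lay within the wild-type range. Adamts7 had 1.85, 4.67, 4.08 and 4.48 TPM in wild-type hearts and 0.638, 3.37, 2.03 and 0.700 TPM in the labelled knockouts. Adamts7 differed by -0.90 on the log2 scale (SE 0.36, adjusted p = 0.166), and -1.18 (SE 0.31, adjusted p = 0.0137) without A29. Hearts A29 and A30 lay within the wild-type range of Adamts7.

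**Figure D3:**
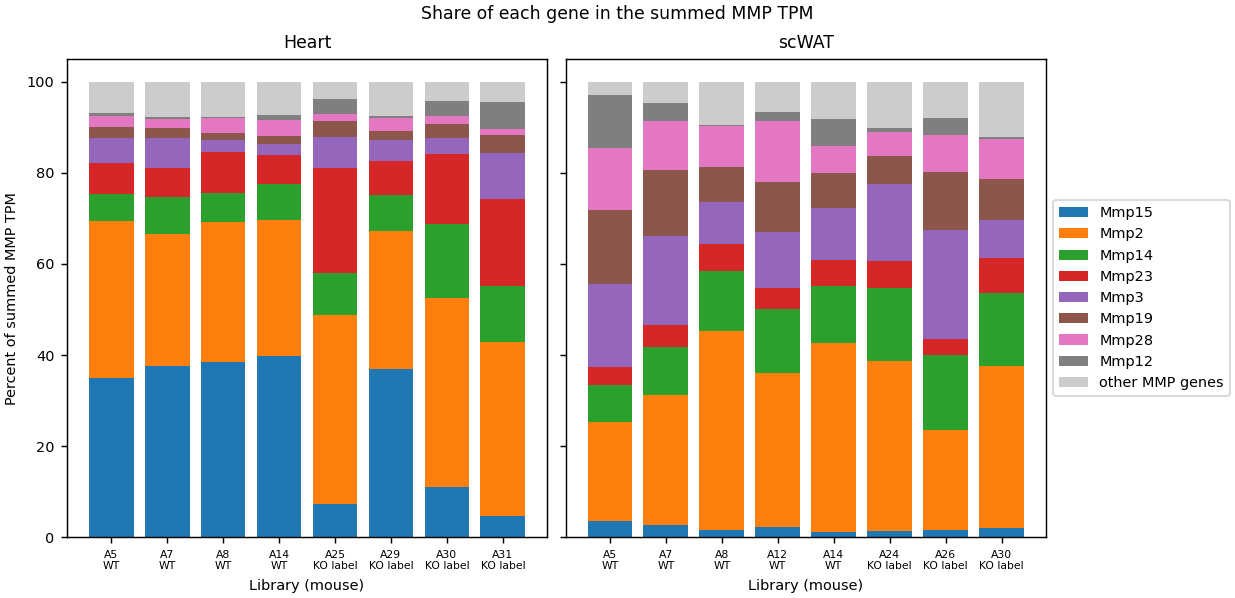
Percent of the summed MMP TPM taken by 8 MMP genes and by all others (grey), in each heart library (left) and each scWAT library (right). Mmp15 takes 34.9% to 39.7% in the wild-type hearts and 36.9% in A29, but 4.57% to 10.98% in A25, A30 and A31, and 1.12% to 3.51% in scWAT.

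Mmp15 was the leading MMP transcript of all 4 wild-type hearts and of A29, with 34.9% to 39.7% and 36.9% of the summed MMP TPM. In A25, A30 and A31 it held 7.25%, 10.98% and 4.57%, and Mmp2 led with 41.5%, 41.5% and 38.3%. Mmp23 held 6.34% to 9.05% in wild-type hearts and 23.1%, 15.2% and 19.1% in those 3 hearts. The summed MMP TPM was 28.5 to 61.8 in wild-type hearts, 31.8 in A29 and 97.9, 170 and 119 in A25, A30 and A31. The remaining tested MMPs, Mmp11 and Mmp28, had log2 differences of 0.21 (SE 0.32) and 0.17 (SE 0.29), with limma adjusted p of 0.702 and 0.726. Mmp9, the gelatinase of inflammatory cells, stayed under 0.33 TPM in all 8 hearts and was not tested. Its values were 0.167, 0.321, 0.320 and 0.216 TPM in wild-type hearts and 0.105, 0.0815, 0.193 and 0.166 TPM in the labelled knockouts. Mmp9 was therefore not among the MMPs that were higher in A25, A30 and A31.

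The ADAMTS genes split by gene. Adamts2, the main procollagen I N-proteinase, had 1.22, 3.14, 3.84 and 3.07 TPM in wild-type hearts A5, A7, A8 and A14 and 12.7, 1.76, 32.2 and 13.4 TPM in A25, A29, A30 and A31. Its log2 difference was 1.66 (SE 0.62, limma adjusted p = 0.152), and 2.35 (SE 0.37, adjusted p = 0.000967) without A29. Adamts3, the related procollagen II protease, had 0.739 to 2.03 TPM in wild-type hearts and 0.556 to 1.43 TPM in the labelled knockouts, with a log2 difference of -0.22 (SE 0.25, adjusted p = 0.589). Adamts10, known for its link to fibrillin microfibrils, had 1.72, 6.79, 8.26 and 5.18 TPM against 9.48, 3.09, 19.1 and 10.5 TPM. The difference of Adamts10 was 0.76 (SE 0.49, adjusted p = 0.349), and 1.19 (SE 0.41, adjusted p = 0.0443) without A29.

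The proteoglycan-cleaving members that were expressed in wild-type heart had small log2 differences. Adamts1 had 5.82 to 13.4 TPM in wild-type hearts and 7.67 to 15.1 TPM in the labelled knockouts, Adamts9 had 2.43 to 5.26 TPM against 2.44 to 9.96 TPM, and Adamts5 had 2.29 to 3.58 TPM against 1.87 to 5.50 TPM. Their log2 differences of 0.28 (SE 0.29), 0.22 (SE 0.36) and 0.20 (SE 0.29) were each under or close to their standard error. Adamts15 had 0.515 to 1.09 TPM in wild-type hearts and 0.770, 0.898, 4.40 and 1.78 TPM in A25, A29, A30 and A31, so only A30 and A31 were above the wild-type range.

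Several ADAMTS genes that were nearly silent in wild-type heart, none of them tested, were higher in the same 3 hearts. Of all genes tested without A29, 45.3% had this pattern. Adamts20, a versican-cleaving protease, had 0.029 to 0.137 TPM in wild-type hearts, 0.021 in A29 and 1.30, 1.42 and 1.31 TPM in A25, A30 and A31. Adamts8 had 0.121 to 0.204 TPM in wild-type hearts, 0.054 in A29 and 1.42, 2.61 and 1.30 TPM in the other 3. Adamts12, a protease of cartilage oligomeric matrix protein like Adamts7, had 0.092 to 0.226 TPM, 0.137 in A29 and 0.746, 2.42 and 1.44 TPM. Adamts4, an aggrecanase, had 0.039 to 0.169 TPM, 0.047 in A29 and 0.570, 3.14 and 1.16 TPM. Adamts6 had 0.196 to 0.604 TPM, 0.336 in A29 and 0.895, 1.41 and 1.64 TPM. Adamts14, equally low and untested, did not share the pattern. It had 0.075 to 0.371 TPM in wild-type hearts, 0.141 in A29 and 0.156, 0.901 and 0.186 TPM in A25, A30 and A31. Adamts8 and Adamts20 averaged 1 TPM or more only in the hearts labelled knockout, so they are described only because they were high there, and their difference was set by that rule. Adamts4 averaged 1 TPM or more only in the heart and fat groups labelled knockout, so its difference has the same limit.

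Marker sums of several other cell types, but not of all, were higher in A25, A30 and A31. The summed TPM of 10 fibroblast markers was 465 to 716 in wild-type hearts, 549 in A29 and 1856, 3150 and 2166 in A25, A30 and A31. The sum of 8 activated fibroblast markers was 61.0 to 109 in wild-type hearts, 62.7 in A29 and 1241, 1487 and 1641 in the other 3. Of these 8, 5 were at or above 1 TPM in each wild-type heart and in A29, and all 8 in A25, A30 and A31. For 10 macrophage markers the sums were 155 to 245, 149 in A29 and 1202, 1256 and 1501, with 8 to 10 of the markers at or above 1 TPM in every heart. The 9 smooth muscle and pericyte markers summed to 555 to 830 TPM in wild-type hearts, 652 in A29 and 1587, 1710 and 1360 in A25, A30 and A31. The 8 chondrocyte and tendon markers summed to 1.54 to 4.89 TPM, 2.78 in A29 and 121, 104 and 89.7, with 2 or 3 of the 8 at or above 1 TPM in those 3 hearts. Acta2 in the smooth muscle list and Comp in the chondrocyte list are also activated fibroblast markers here. The sums of 10 B and T cell markers were 12.7 to 39.6 TPM, 16.7 in A29 and 79.1, 76.0 and 105. Only 1 of the 10 was at or above 1 TPM in each wild-type heart, and 1 to 3 in the labelled knockouts. The 12 skeletal muscle markers summed to 1202 to 1560 TPM, 1787 in A29 and 2657, 3274 and 2003, so A29 also lay above the wild-type range. Of these 12, 2 to 4 were at or above 1 TPM in wild-type hearts and 4 or 5 in the labelled knockouts. Epithelial markers summed to 0.433 to 4.14 TPM, 0.266 in A29 and 15.7, 23.8 and 19.3, with 1 or 2 of 10 at or above 1 TPM in the 3 high hearts. Neutrophil markers stayed low, with sums of 2.11 to 8.49 TPM in wild-type hearts and 1.06 to 10.7 TPM in the labelled knockouts, and Ly6g was at 0 in every heart. Cardiomyocyte marker sums overlapped, at 22556 to 32124 TPM in wild-type hearts and 21750 to 28081 TPM in the labelled knockouts. Mature adipocyte marker sums also overlapped, at 1330 to 2040 TPM in wild-type hearts and 1240 to 1492 TPM in the labelled knockouts. Of these 10 markers, 8 were at or above 1 TPM in A8 and only 4 in each other heart. Endothelial marker sums were 160 to 315 TPM in wild-type hearts, 210 in A29 and 307, 395 and 329 in A25, A30 and A31. A25 was thus inside the endothelial wild-type range. The part of cell makeup in the differences of the members was not tested.

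Partner genes were taken from 7 lists of the wider matrix turnover pathway, 77 genes in all, of which 76 were in the tables. In heart 62 were tested and 0 were called with all 8 libraries. At an unadjusted limma p under 0.05, 33 were higher and 1 lower, where 20.9% of all genes tested were higher and 3.66% lower. Without A29, 46 of the 62 were called higher and 1 (Htra1, a secreted serine protease) lower, against the 34.8% and 4.16% of all genes given above. The list medians of the relative log2 difference with all 8 hearts ran from 0.018 for MMP activators and membrane inhibitors to 1.04 for elastic fibre genes and lysyl oxidase substrates.

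The 8 partners with the smallest p in heart were Mfap5, Ctsk, Lcn2, P4ha3, Serpine2, Cst3, Vcan and Mfap4, and none passed the adjusted threshold. Mfap5, a microfibril protein, had 6.68, 9.56, 11.9 and 7.86 TPM in wild-type hearts and 203, 12.2, 193 and 256 TPM in A25, A29, A30 and A31. Mfap4, which binds elastin and collagen, had 1.88 to 3.54 TPM in wild-type hearts and 62.0, 2.08, 81.3 and 75.8 TPM in the labelled knockouts. Their log2 differences were 3.46 (SE 0.78) and 3.10 (SE 0.88), each with a limma adjusted p of 0.142. The versican gene Vcan, a substrate of several ADAMTS proteases, had 1.62 to 3.69 TPM in wild-type hearts and 24.9, 2.25, 35.4 and 31.7 TPM.

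Ctsk, a cysteine protease that cuts collagen, had 1.19 to 2.72 TPM in wild-type hearts and 17.5, 2.09, 20.6 and 24.2 TPM in A25, A29, A30 and A31. Its inhibitor gene Cst3 had 302 to 449 TPM in wild-type hearts and 1145, 374, 901 and 1171 TPM. P4ha3, a subunit of collagen prolyl hydroxylase, was at or under 0.095 TPM in every wild-type heart and had 2.61, 0.054, 4.19 and 3.35 TPM in the labelled knockouts. Serpine2, an inhibitor of plasminogen activators and thrombin, had 8.62 to 11.8 TPM in wild-type hearts and 59.5, 9.34, 58.4 and 66.5 TPM. Lcn2, which binds MMP9, had 1.79 to 4.21 TPM in wild-type hearts and 7.79, 4.30, 14.7 and 15.6 TPM. All 8 partners thus had the same 3 hearts above the wild-type range, and for Mfap5 and Lcn2 A29 also lay just above it. The 8 were picked by smallest p in this same fit, so that pattern was favoured by the choice. It held for 45.3% of all genes tested without A29.

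In subcutaneous fat no member passed the test between genotype labels. Of 30 members tested among 13682 genes, 0 were called, against 0.0146% of all genes called higher and 0.00731% lower. At an unadjusted limma p under 0.05 only Adamts15 was higher and only Adamts5 lower, where 8.11% of all genes were higher and 7.52% lower. The lowest adjusted p of a member was 0.231. Without A26 the count was also 0, against 0.923% of all genes called higher and 0.0447% lower. Among the 30 tested members, only Adamts6 had every labelled knockout library above every wild-type library (limma adjusted p = 0.420), and 0 had the reverse. Of all genes tested, 5.23% were separated in the first way and 5.06% in the reverse way. Adamts4 also had all its labelled knockout libraries above the wild-type ones, but it was too low for the test, so these shares do not cover it. It is described only because it averaged 1 TPM or more in the groups labelled knockout, so its separation was favoured by that rule.

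Adamts5, an aggrecan- and versican-cleaving protease, was the ADAMTS gene with the most transcript in all 5 wild-type fat libraries. It had 132, 112, 87.4, 95.9 and 42.4 TPM in wild-type mice A5, A7, A8, A12 and A14. The libraries labelled knockout held 28.2 TPM in A24, 8.11 in A26 and 62.7 in A30. Only A30 reached into the wild-type range, above A14. The log2 difference was -1.79 (SE 0.58, limma adjusted p = 0.231), and -1.04 (SE 0.44, adjusted p = 0.485) without A26. An exact 2-sided permutation test over the 8 libraries gave an unadjusted p of 0.0357, where 0.0179 is the smallest possible.

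Adamts15, another versican-cleaving protease, had 4.35, 3.14, 2.74, 2.20 and 2.17 TPM in wild-type fat and 6.34, 3.90 and 4.42 TPM in A24, A26 and A30. The groups overlapped through wild-type A5, and the log2 difference was 0.59 (SE 0.24, limma adjusted p = 0.286). Adamts4 had 0.674, 0.721, 0.780, 0.476 and 0.583 TPM in wild-type fat and 1.31, 1.82 and 1.62 TPM in the labelled knockouts. Adamts6 had 1.03, 0.627, 1.03, 1.60 and 1.53 TPM against 1.77, 1.88 and 1.78 TPM. For Adamts2 the values were 62.8, 70.7, 32.1, 34.5 and 39.4 TPM in wild-type fat and 48.1, 12.5 and 40.3 TPM in the labelled knockouts A24, A26 and A30. A26 alone lay outside the wild-type range.

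**Figure D4:**
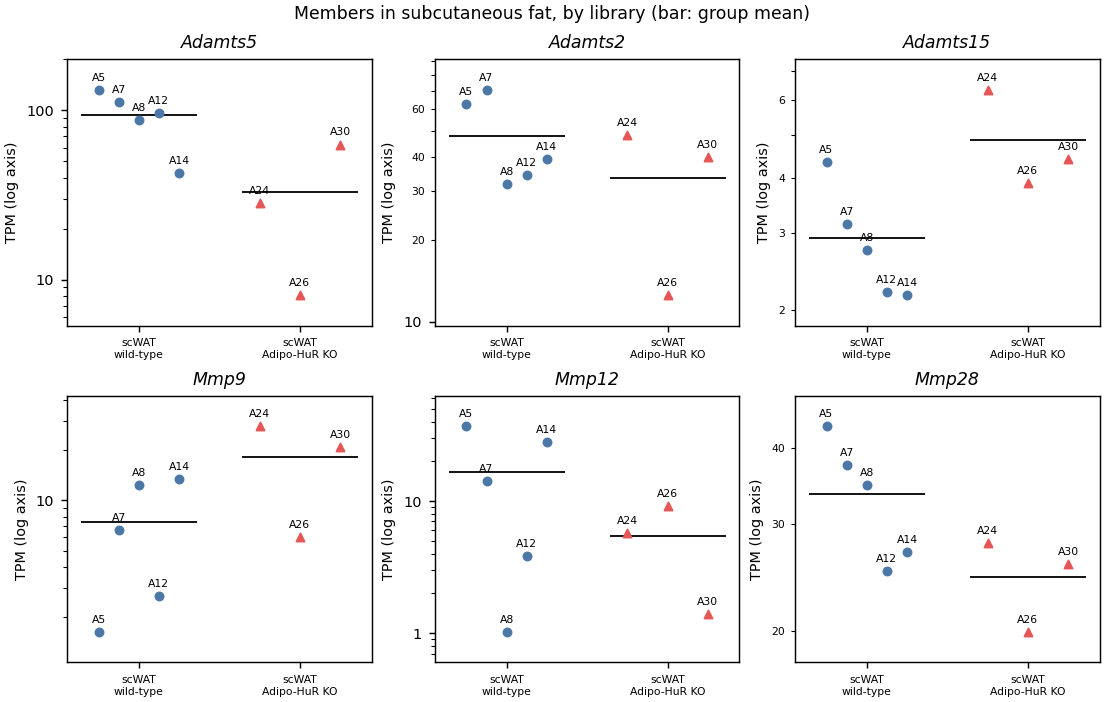
TPM (log axis) of 6 members in each scWAT library, by genotype label (circles, wild-type; triangles, Adipo-HuR KO label; bars, group means; mouse numbers beside the points). Adamts5 runs from 42.4 to 132 TPM in wild-type fat and from 8.11 to 62.7 TPM in the labelled knockouts, and Mmp12 spans 1.03 to 36.7 TPM among the wild-type mice alone.

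The gelatinase Mmp9 had 1.63, 6.63, 12.4, 2.69 and 13.5 TPM in wild-type fat and 27.8, 6.06 and 20.9 TPM in A24, A26 and A30. Its log2 difference was 1.28 (SE 0.66, limma adjusted p = 0.365), and 1.89 (SE 0.65, adjusted p = 0.396) without A26. Mmp12 varied most among the wild-type libraries, with 36.7, 14.1, 1.03, 3.84 and 27.8 TPM, and had 5.74, 9.23 and 1.39 TPM in the labelled knockouts. Mmp28, epilysin, had 43.4, 37.5, 34.8, 25.1 and 27.0 TPM in wild-type fat and 27.9, 19.96 and 25.8 TPM. On the log2 scale Mmp28 differed by -0.42 (SE 0.20, adjusted p = 0.348), and the groups overlapped.

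Mmp2, Mmp14 and Timp2 varied together among the fat libraries. Mmp2 had 69.2, 98.9, 170, 63.9 and 189 TPM in wild-type fat and 201, 54.3 and 105 TPM in A24, A26 and A30. Mmp14 had 25.8, 36.1, 51.6, 26.3 and 56.7 TPM and then 86.4, 40.2 and 46.8 TPM. Timp2 had 117, 207, 286, 91.5 and 294 TPM and then 459, 161 and 275 TPM. For all 3 genes the highest library was A24, followed by A14 and A8, and the labelled groups overlapped for each. This order was not particular to them. Mmp11 had it too, with 17.7, 17.1 and 16.5 TPM in A24, A14 and A8. So had the sum of 10 fibroblast markers, with 15228, 14511 and 14180 TPM. The part of fibroblasts in this order was not tested. The log2 differences of Mmp2, Mmp14 and Timp2 were -0.03 (SE 0.48), 0.54 (SE 0.33) and 0.60 (SE 0.46), with limma adjusted p of 0.976, 0.429 and 0.513.

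Timp1, so high in the 3 hearts, had 18.7, 9.64, 3.17, 1.97 and 4.61 TPM in wild-type fat and 4.603, 4.53 and 4.10 TPM in fat labelled knockout. Mouse A30, which gave both tissues, thus had 173 TPM of Timp1 in heart and 4.10 TPM in fat. Timp3 had 175, 193, 235, 116 and 162 TPM in wild-type fat and 243, 207 and 219 TPM in the labelled knockouts. Timp4 had 150, 112, 194, 93.7 and 68.7 TPM against 116, 98.1 and 196 TPM. The log2 differences of Timp1, Timp3 and Timp4 were -0.33 (SE 0.55), 0.37 (SE 0.21) and 0.17 (SE 0.35), with limma adjusted p of 0.771, 0.405 and 0.816.

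Lox had 69.3, 79.6, 64.6, 105 and 65.2 TPM in wild-type fat and 46.0, 13.9 and 91.4 TPM in A24, A26 and A30. Its log2 difference was -0.93 (SE 0.49, limma adjusted p = 0.372), and -0.22 (SE 0.29, adjusted p = 0.813) without A26. Loxl1 and Loxl2 were also lowest in A26, with 21.5 TPM against 42.5 to 67.8 in the other 7 libraries and 5.85 TPM against 15.7 to 28.3. Loxl3 had 2.77 to 7.24 TPM in wild-type fat and 6.28, 2.98 and 5.20 TPM in the labelled knockouts. Loxl4 had 2.09 to 4.49 TPM in wild-type fat and 1.79, 0.928 and 2.09 TPM, with a log2 difference of -0.60 (SE 0.28, adjusted p = 0.331). The median log2 difference of the 5 lysyl oxidases was -0.52 with all libraries and 0.07 without A26, and that of the 11 MMPs was 0.06 and 0.43.

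Library A26 was the lowest of the 8 fat libraries for 12 of the 30 tested members and for 25.1% of all genes tested, and A24 was the highest for 13 of the 30 and for 13.5% of all genes. In A26 the summed TPM of 10 B and T cell markers was 1814, against 15.3 to 31.6 in the other 7 fat libraries, and that of 10 neutrophil markers 209 against 10.3 to 60.9. Mmp25, an MMP of leukocytes, had 3.06 TPM in A26 and 0.105 to 0.326 TPM in the other 7 libraries. It reached a group mean of 1 TPM only through A26, so it is described only because it was high there. The activated fibroblast sum was 156 TPM in A26 and 423 to 626 elsewhere. Skeletal muscle markers summed to 4942 TPM in A24, 367 in A26 and 9735 in A30, against 56.4 to 1034 in wild-type fat. The part of these cells in the fat results was not tested.

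Of the partner genes in fat, 67 were tested and 0 called, with 3 higher and 8 lower at an unadjusted limma p under 0.05, where 8.11% of all genes were higher and 7.52% lower. The 8 with the smallest p were Ctsl, Ctsd, P3h1, Adam33, Plod3, Hpse, Adam19 and Ncan. Ctsl, a lysosomal cysteine protease, had 470 to 806 TPM in wild-type fat and 325, 219 and 467 TPM in A24, A26 and A30, with a log2 difference of -0.96 (SE 0.27, adjusted p = 0.217). Ctsd, a lysosomal aspartic protease, had 1068 to 1961 TPM against 1128, 665 and 965 TPM. The collagen-modifying enzyme genes P3h1 and Plod3 had log2 differences of -1.08 (SE 0.34) and -0.78 (SE 0.27). Adam33, a membrane protease, had 4.83 to 12.2 TPM in wild-type fat and 23.2, 10.3 and 20.7 TPM, with a log2 difference of 1.13 (SE 0.37, adjusted p = 0.234).

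Between the wild-type tissues most members were far higher in fat than in heart. Heart minus scWAT was fitted with limma over the 9 wild-type libraries. Of the 28 members tested, 26 were called lower in heart and 2 higher, where 78.5% of 13093 genes were called lower and 8.12% higher. On the deposited scale mitochondrially encoded genes took 51.9% to 60.6% of the TPM in wild-type heart and 6.14% to 14.4% in wild-type fat, and the median log2 difference of all genes was -1.27. With median-of-ratios scaling 20 of 29 members were lower in heart and 3 higher, against 34.2% and 33.1% of all genes. With quantile normalization 20 were lower and 2 higher, against 35.8% and 32.1%.

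**Figure D5:**
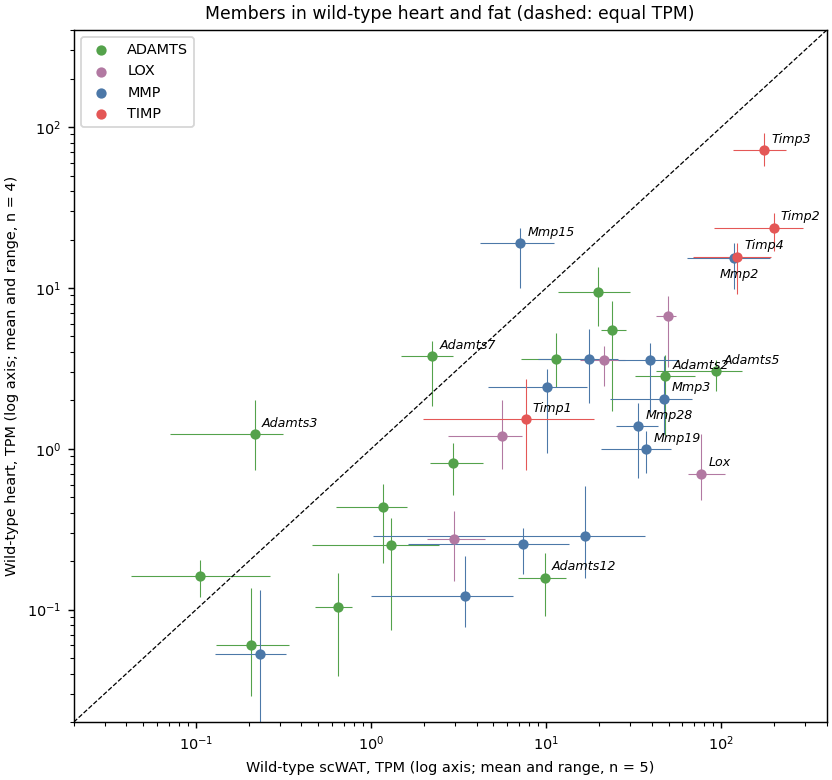
Mean TPM of each described member in wild-type scWAT (x, n = 5) and wild-type heart (y, n = 4), on log axes, coloured by family, with lines for the range over libraries and a dashed line at equal TPM. Lox lies farthest below the line, with 76.8 TPM in fat and 0.700 in heart. Mmp15, Adamts7, Adamts3 and Adamts8 (0.106 TPM in fat and 0.161 in heart) lie above it.

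Lox had the largest tissue difference of the tested members, 76.8 TPM ± 17.0 (SD, n = 5) in fat and 0.700 TPM ± 0.359 (SD, n = 4) in heart. Its log2 difference was -5.51 (SE 0.19, limma adjusted p = 1.05e-10), and -4.25 relative to the median of all genes. Adamts5 followed with 93.9 TPM ± 33.4 (SD, n = 5) in fat and 3.04 TPM ± 0.639 (SD, n = 4) in heart, a log2 difference of -4.47 (SE 0.28). Mmp19 and Mmp3 had -4.20 (SE 0.25) and -3.96 (SE 0.31). All 4 kept their call and direction when the mitochondrially encoded genes were left out, by median-of-ratios scaling and by quantile normalization.

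Mmp15 was higher in heart, with 19.0 TPM ± 6.15 (SD, n = 4) against 7.13 TPM ± 2.99 (SD, n = 5) in fat, and a log2 difference of 1.31 (SE 0.30, limma adjusted p = 0.00118). Adamts7 was higher in heart by 0.53 (SE 0.23, limma adjusted p = 0.0497), close to the threshold, and by 1.59 with median-of-ratios scaling. With the mouse as replicate block the call of Adamts7 on the deposited scale was lost (limma adjusted p = 0.0505), and leaving out 1 library at a time gave adjusted p from 0.00253 to 0.142. Adamts3 had 0.739 to 2.03 TPM in wild-type heart and 0.071 to 0.314 TPM in wild-type fat, and was too low for the test as deposited. It was called higher in heart by 1.42 with median-of-ratios scaling and by 1.54 without mitochondrially encoded genes. Mmp15 and Adamts7 were also the members with a lower value at an unadjusted p under 0.05 in hearts labelled knockout, and both comparisons share the wild-type hearts. Timp3 and Adamts1 had no fixed direction between the tissues, at -1.27 and -0.97 as deposited and 0.18 and 0.38 with median-of-ratios scaling. Adamts9, Adamts15, Mmp11 and Timp1 lost their call with median-of-ratios scaling and with quantile normalization.

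Whether the genotype difference itself differed between heart and fat was tested with an interaction term over all 16 libraries. Of 24 members tested among 11536 genes, 0 were called by limma. Of all genes, 0.00867% were called with a higher and 0.052% with a lower genotype difference in heart than in fat. At an unadjusted limma p under 0.05, 9 members had a higher and 0 a lower genotype difference in heart, where 17% and 3.42% of all genes did. Lox had the lowest adjusted p of the members, 0.0898, with an interaction of 4.27 (SE 1.16) on the log2 scale, and Timp1 had 4.80 (SE 1.52, adjusted p = 0.111). Without A29, 11 members were called, all with a genotype difference that was higher in heart than in fat. They were Timp1, Lox, Loxl1, Loxl2, Loxl3, Mmp2, Mmp12, Mmp19, Mmp23, Adamts2 and Adamts5. Adamts5 was not called in heart itself, with a log2 difference without A29 of 0.43 (limma adjusted p = 0.157). Its difference in fat was -1.79. The background was then 22.4% of all genes higher and 2.27% lower, and with library weights 13 members were called (Adamts7 and Mmp15 lower, the other 11 higher), against 30% higher and 15.6% lower.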

How the data were processed

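The authors deposited 1 table of TPM per gene symbol for each of 16 libraries, per the file headers, and each library summed to 1000000 TPM. Per the labels' protocols, Trizol was used on frozen tissue and Illumina TruSeq libraries were made from total RNA. Not given in the sources used here are the aligner, the quantifier and the build. TPM holds no depth, so no counting interval was computed, and fits used log2(TPM + 1), which understates differences of low genes.

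Members were matched by symbol. Genes averaging at least 1 TPM over the libraries of a fit were tested, 2-sided, with limma 3.58.1 (trended eBayes) in R 4.3.3, adjusted by Benjamini-Hochberg over all genes with a threshold of 0.05, and tested on simulated data. The members, partner lists, markers and rules were chosen with earlier results of these data known. Named were described members, with values in every library for TIMP and lysyl oxidase genes and for up to 10 MMP and 10 ADAMTS genes per tissue by smallest p, and 8 partners per tissue by smallest p. Promoters came from RefSeq on GRCm38.p6. No protein sequences were used here. Groups and mouse numbers came from the labels. A number marks 1 animal, so 5 mice pair the tissues. In the wild-type mice with both tissues, deviations of heart and fat correlated over genes at 0.037, 0.062, 0.167 and 0.118. P-values measure spread between animals.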

Additional observations from a re-analysis of the deposited data

Results flagged for a closer look

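Within each group of 4 or 5 libraries, the highest or lowest value of a member was compared with its nearest neighbour by Dixon's criterion. Of 105 sets of values examined, 12 had a library far from the others, where chance gives about 1 in 20, or 5 sets.

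Heart A29 was the low value in 5 of the 12 sets. It had 0.9002 TPM of Timp1, 17.82 of Timp2, 0.9172 of Loxl3, 2.379 of Mmp23 and 0.02102 of Adamts20, below the other 3 hearts labelled knockout. Heart A5 was the low value among the wild-type hearts for Mmp15, with 9.939 TPM, and for Adamts7, with 1.848 TPM.

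The other 5 sets each had 1 high library. They were Lox in wild-type heart A7 at 1.236 TPM, Adamts20 and Mmp27 in wild-type heart A8 at 0.1366 and 0.2158 TPM, Adamts14 in heart A30 at 0.9006 TPM and Adamts8 in wild-type fat A14 at 0.264 TPM.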

How the results depend on the processing

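The number of members called in heart was 0 in the main analysis, 18 with array weights, 4 in a shared fit over both tissues and 4 in that fit with the mouse as replicate block. Leaving out 1 heart at a time gave 0 to 15, and the 15 came without A29. The interaction count was 0, 13 with array weights and 0 with the replicate block, and leaving out 1 library gave 0 to 11, the 11 again without A29. In fat the count was 0 under every alternative run, including the style of the library names as covariate. Between the wild-type tissues it was 28 of 28 tested, and 27 with the replicate block, which ended the call of Adamts7 (limma adjusted p = 0.0505). That tissue count was 23 of 29 with median-of-ratios scaling, 22 of 28 with quantile normalization and 24 of 31 without mitochondrially encoded genes. A filter of 5 TPM gave 21 of 21, and no filter gave 35 of 48. The replicate block changed no other call of a member. The heart difference of Timp3 changed sign, to -0.09508 by median-of-ratios scaling and to -0.09315 by quantile normalization (limma adjusted p of 0.765 and 0.716). Single members were followed under the alternatives only if their unadjusted limma p was under 0.05 in the heart or fat genotype fit, with Timp3 and Timp4 added. Among their values, 320 kept direction and side of the threshold, 38 passed it in the same direction and those 2 changed sign. Members picked for a difference tend to keep its direction, so these counts do not describe the other members. The cause of these shifts was not tested. Depth is unknown, so values under 1 TPM carry no stated precision.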
